A study of Brassica napus with 16 samples.

Results

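The 9 copies of FLOWERING LOCUS C (FLC) of Brassica napus (oilseed rape) are described here, in 16 RNA-seq libraries that list 101040 genes. The copies were taken by gene identifier, with no use of their values: 1 on chromosome A02, 2 on A03, 1 on A10, 1 on C02, 2 on C03 and 2 on C09. They are called here by chromosome, and the pairs on A03, C03 and C09 are numbered by identifier. Counterparts in the A and C subgenomes were paired by chromosome (A02 with C02, A03 with C03, A10 with C09) and, on A03 and C03, by that number. The libraries come from cultivars 2063A and B409. In each cultivar, 4 tissues were sampled, with 2 replicates in each of the 8 groups: young leaf of seedlings aged 2 weeks, flower buds of at most 2 mm, siliques of 3 to 5 cm, and root 7 d after planting. Young leaf and root were grown in a phytotron, while buds and siliques came from plants in the field, so tissue cannot be told apart from plant age and growing place. The labels do not say that replicates were separate plants, so a p-value here speaks only of how these samples vary, and that variation may be technical. No transgene or treatment is named in the labels.

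FLC encodes a MADS-box transcription factor that, in Arabidopsis, represses flowering. It acts with the related protein SVP and holds back the flowering promoters FT and SOC1. FRIGIDA keeps FLC active, and prolonged cold (vernalization) silences it through Polycomb-group chromatin marks. Oilseed rape joins an A subgenome and a C subgenome, both of ancestors that were themselves multiplied, and so carries several copies. Variation at copies on A02, A03 and A10 has been tied to flowering time and cold requirement in this species. The identity of the copies rests on their identifiers, since the reference gene table used here held 0 of the 9. None of 46 other flowering gene symbols searched (such as FRI, VIN3, SVP, FT and SOC1) and none of 30 tissue marker symbols was tied there to an identifier of the files, so those genes, and a check of each tissue against its markers, were not analysed here. FLC loci also make antisense RNA in Arabidopsis; whether strand was used in counting is not stated, so sense and antisense reads cannot be told apart.

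FPKM is a fragment count divided by transcript length and by the mapped fragments of the library. Summed FPKM ran from 519039 to 617686 per library, and 33483 to 41456 genes reached an FPKM of 1. Low FPKM values fell on steps, from which a relative depth was read: the deepest library had 1.84 times and the shallowest 0.668 times the depth of 2063A root replicate 1. All values above 0 of an FLC copy were whole multiples of 1 step after this scaling (largest distance from a whole number 0.00112), and the multiples are given here as fragments. Where a copy is listed at 0, 3 fragments set the highest level that the depth allows, which covers counting error only. How reads shared by near-identical copies were assigned is not stated in the sources used here, so the split between copies is uncertain.

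Of the 9 copies, 6 were expressed and 3 were at or near 0 throughout. BnaC03g16530D (C03 copy 2) was listed at 0 in all 16 libraries. BnaC03g04170D (C03 copy 1) was above 0 in 3 young leaf libraries, at 0.0988 in 2063A and at 0.175 and 0.105 in B409, and at 0 in the other 13. BnaC09g46540D (C09 copy 2) was above 0 in 4 libraries of B409, at 0.174 and 0.157 in young leaf, 0.0874 in flower bud and 0.0930 in root, and listed at 0 in all 8 of 2063A. These values are of 1 to 3 fragments. A count of 0 allows an FPKM of up to 0.803 for C03 copy 1 and 0.400 for C09 copy 2, so low expression of these copies was not detectable at this depth. The other 6 copies reached an FPKM of 1 in 4 to 13 libraries, past the minimum of 2 libraries set for the tests. A copy that is high in a few groups passes this filter through them, so counts over the 6 are given as a description.

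**Figure D1:**
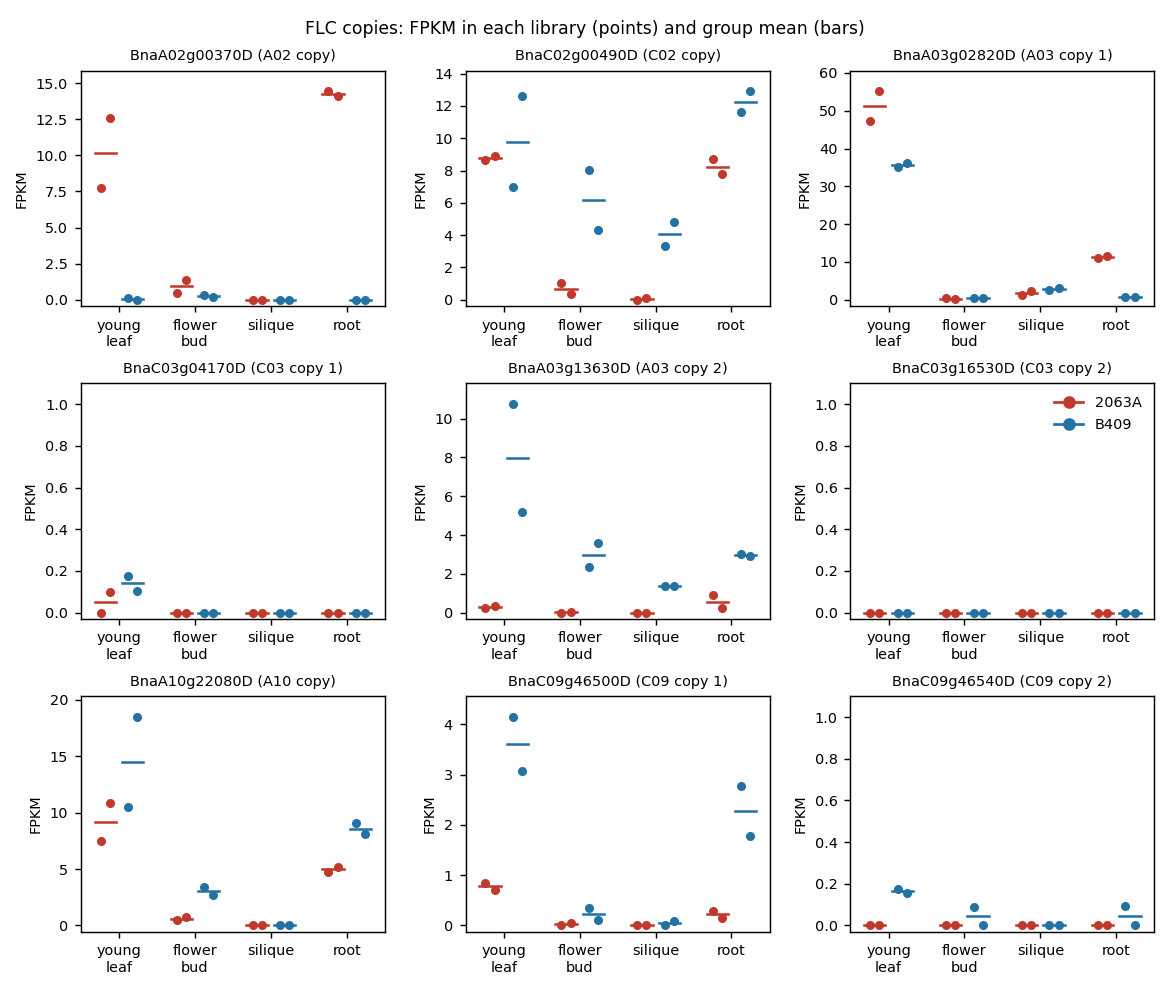
FPKM of each of the 9 FLC copies (a panel each, with its own vertical axis from 0) by tissue, with 2063A in red and B409 in blue; points are libraries and bars are means of 2 replicates. The A02 copy reaches 7.77 to 14.4 in young leaf and root of 2063A, while A03 copy 2 is above 1 in all 8 libraries of B409 and below 1 in all 8 of 2063A.

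Summed over the 9 copies, FLC was highest in young leaf, then root, in both cultivars. In 2063A the sum was 80.4 ± 11.6 FPKM in young leaf, 39.5 ± 0.822 in root, 2.54 ± 0.296 in flower bud and 1.87 ± 0.755 in silique (SD, n = 2 each). In B409 it was 72.0 ± 5.55 in young leaf, 26.9 ± 0.620 in root, 13.1 ± 2.69 in flower bud and 8.31 ± 1.60 in silique (SD, n = 2 each). Flower bud and silique overlapped in 2063A (2.33 and 2.75 against 1.34 and 2.405) and did not in B409 (15.01 and 11.2 against 7.18 and 9.44). Young leaf exceeded flower bud 31.7-fold in 2063A and 5.49-fold in B409. In flower bud the sum was 5.17-fold lower in 2063A than in B409, and in silique 4.44-fold lower. In root it was 1.47-fold higher in 2063A, and in young leaf the libraries overlapped (72.2 and 88.7 in 2063A, 68.1 and 75.9 in B409). At each replicate number the young leaf sum was the higher in 2063A. No test was made on the sum. In tissue RNA, fewer cells that express a gene and less RNA per cell cannot be told apart.

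**Figure D2:**
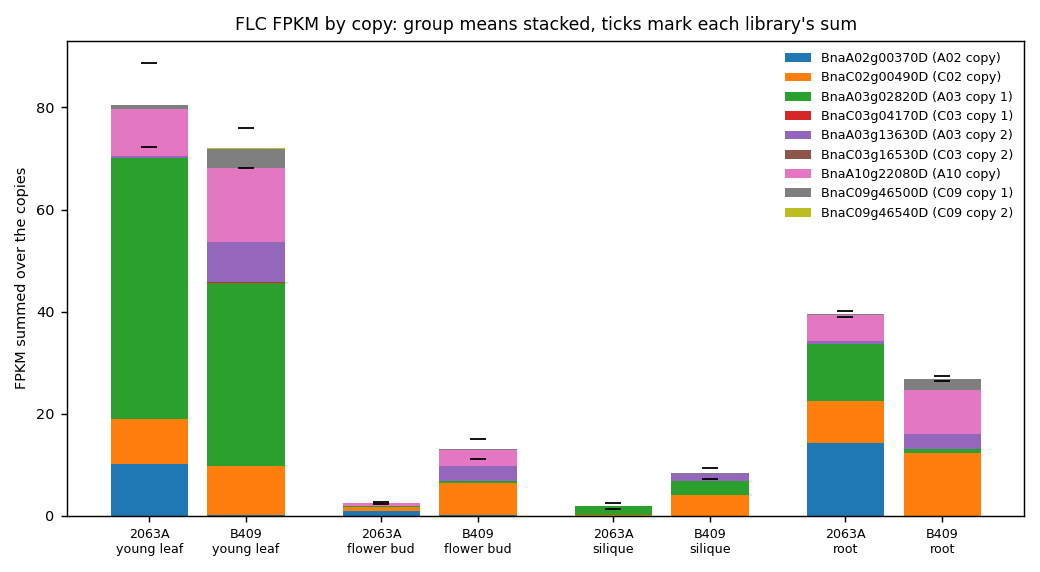
FPKM of the FLC copies stacked by copy (group means, n = 2) for each tissue, 2063A left of B409; black ticks mark the sum in each library. Green (A03 copy 1) makes up 63.6% of the young leaf bar of 2063A and 49.7% of that of B409, while orange (C02 copy) is the largest part of the other 3 bars of B409.

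Which copy led depended on tissue and cultivar. A03 copy 1 held 63.6% of summed FLC FPKM in young leaf of 2063A and 49.7% in that of B409. In silique of 2063A it held 98.0%, and every other copy was at or near 0 there. This share rests on 10 and 36 fragments of A03 copy 1. In replicate 1 it had 1.34 FPKM, where a 0 allows up to 0.798 FPKM (C03 copy 1), so the share is uncertain. In root of 2063A the A02 copy held 36.2%, and in its flower bud 37.0%, although there its replicates differed (21.0% and 50.6%) and the C02 copy led in replicate 1 (43.6%). In B409 the C02 copy led in flower bud (46.9%), silique (49.0%) and root (45.6%). The A copies together held 78.6% in root of 2063A, against 45.7% in root of B409, and the libraries did not overlap. In flower bud they held 72.4% in 2063A, against 51.0% in B409, where the libraries overlapped (56.4% and 86.0% in 2063A, 43.7% and 60.8% in B409).

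BnaA02g00370D, the A02 copy, was expressed in 2063A and at or near 0 in B409. In young leaf it had 7.77 and 12.6 FPKM in 2063A, against 0.1001 and 0 in B409, or 288 fragments against 1. In root it had 14.4 and 14.1 in 2063A, against 0 in both libraries of B409. These groups did not overlap in either tissue. The difference, 2063A minus B409, was 3.38 in young leaf (SE 0.22, limma adjusted p = 9.3e-07) and 3.93 in root (SE 0.22, limma adjusted p = 1.3e-07), on the log2(FPKM + 1) scale used for all differences. Root of 2063A was at least 42.9-fold higher than root of B409, taking 3 fragments per library for the zeros. For young leaf the ratio of fragments per depth was 295, with an exact 95% counting interval of 52.6 to 11699. In flower bud it had 0.489 and 1.39 in 2063A, against 0.301 and 0.153 in B409, and the difference of 0.62 was not called (SE 0.22, limma adjusted p = 0.062). In silique it was listed at 0 in all 4 libraries, where the depth allows up to 0.457 FPKM.

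BnaC02g00490D, the C02 counterpart, was lower in flower buds and siliques of 2063A than in those of B409. In flower bud it had 1.01 and 0.345 FPKM in 2063A, against 8.01 and 4.29 in B409. In silique it had 0 and 0.0763 in 2063A, against 3.31 and 4.84 in B409. Neither pair of groups overlapped, and the difference was -2.07 in flower bud (SE 0.30, limma adjusted p = 0.00029) and -2.27 in silique (SE 0.30, limma adjusted p = 0.00019). The bud means differed 9.05-fold, on 20 fragments in 2063A and 104 in B409, and 17.8-fold without 2063A flower bud replicate 1. In silique the fragments were 1 in 2063A and 109 in B409, a ratio of 81.5 per depth with an exact 95% counting interval of 14.3 to 3249. In young leaf it had 8.68 and 8.91 in 2063A, against 6.95 and 12.6 in B409. In root it had 8.70 and 7.78 in 2063A, against 11.6 and 12.9 in B409, and although these libraries did not overlap, the difference of -0.52 was not called (SE 0.30, limma adjusted p = 0.29).

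In B409 the C02 copy exceeded the A02 copy in all 8 libraries. In 2063A the A02 copy was the higher in 4 libraries and the C02 copy in 3, with both at 0 in the remaining silique library. In root, 2063A had 14.3 FPKM of the A02 copy and 8.24 of the C02 copy, while B409 had 0 and 12.3.

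BnaA03g02820D, the first copy on A03, had the highest level of any copy and was the only one above 0 in all 16 libraries. In young leaf it had 47.2 and 55.1 FPKM in 2063A, against 35.2 and 36.3 in B409. These levels placed it above 97.5% to 98.6% of the listed genes of each young leaf library. In root it had 10.96 and 11.4 in 2063A, against 0.751 and 0.708 in B409, a 15.4-fold difference of the means resting on 240 and 15 fragments. The root difference was 2.82 (SE 0.17, limma adjusted p = 2.3e-07), and the young leaf difference of 0.50 was not called (SE 0.17, limma adjusted p = 0.068). In silique it had 1.34 and 2.33 in 2063A, against 2.49 and 3.14 in B409, and in flower bud 0.368 and 0.195 in 2063A, against 0.529 and 0.404 in B409. Neither of these differences was called (-0.45 in silique, limma adjusted p = 0.11; -0.20 in flower bud, limma adjusted p = 0.49; SE 0.17 each). Its level exceeded that of its counterpart C03 copy 1, or what 3 fragments allow where that copy is at 0, in 14 of 16 libraries. The exceptions were flower bud replicate 2 of either cultivar, where a 0 of C03 copy 1 allows 0.291 FPKM in 2063A and 0.803 in B409. In flower bud replicate 1 the margin was small, at 0.368 against 0.366 in 2063A and 0.529 against 0.526 in B409. Each of these values of A03 copy 1 rests on 6 fragments, so the copies are not clearly told apart in flower bud.

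BnaA03g13630D, the second copy on A03, went the other way and was lower in 2063A in all 4 tissues. In young leaf it had 0.233 and 0.331 FPKM in 2063A, against 10.7 and 5.20 in B409, a 28.2-fold difference of the means (18.4-fold without B409 young leaf replicate 1) on 8 fragments in 2063A and 199 in B409. In flower bud it had 0 and 0.0542 in 2063A, against 2.35 and 3.59 in B409. In silique it was listed at 0 in both libraries of 2063A, against 1.38 and 1.37 in B409, so that it was at least 4.17-fold lower in 2063A with 3 fragments per library for the zeros. In root it had 0.899 and 0.216 in 2063A, against 3.02 and 2.92 in B409. The highest library of 2063A (0.899) stayed below the lowest of B409 (1.37). Against B409, the copy fell by 2.74 in young leaf (SE 0.27, limma adjusted p = 2.5e-05), 1.93 in flower bud (SE 0.27, limma adjusted p = 0.00026), 1.25 in silique (SE 0.27, limma adjusted p = 0.0072) and 1.39 in root (SE 0.27, limma adjusted p = 0.0029). The silique and root calls were the weakest, with adjusted p up to 0.047 and 0.045 over the alternatives. Its C03 counterpart, C03 copy 2, was at 0 throughout.

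BnaA10g22080D, the A10 copy, was present in leaf, bud and root of both cultivars and listed at 0 in silique. In young leaf it had 7.52 and 10.9 FPKM in 2063A, against 10.5 and 18.5 in B409, and the libraries overlapped. At each replicate number 2063A was the lower, and the difference of -0.57 was not called (SE 0.23, limma adjusted p = 0.12). In root it had 4.77 and 5.15 in 2063A, against 9.04 and 8.12 in B409, with a difference of -0.68 that was not called (SE 0.23, limma adjusted p = 0.058). In flower bud it had 0.455 and 0.723 in 2063A, against 3.38 and 2.66 in B409, and fell by 1.34 (SE 0.23, limma adjusted p = 0.0011), 5.12-fold between the means. In silique it was listed at 0 in all 4 libraries, where the depth allows up to 0.496 FPKM.

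BnaC09g46500D, the first copy on C09, was lower than the A10 copy in 12 of 16 libraries and higher in 1, with both at 0 in 3. In young leaf it had 0.839 and 0.715 FPKM in 2063A, against 4.14 and 3.07 in B409. In root it had 0.287 and 0.155 in 2063A, against 2.77 and 1.78 in B409. It fell in 2063A by 1.37 in young leaf (SE 0.16, limma adjusted p = 9.4e-05) and by 1.41 in root (SE 0.16, limma adjusted p = 4.7e-05), and the groups did not overlap. The means differed 4.64-fold in young leaf and 10.3-fold in root, the root values resting on 6 fragments in 2063A and 59 in B409. In flower bud and silique no library exceeded 0.352. The A10 copy exceeded this copy 11.8-fold in young leaf and 22.4-fold in root of 2063A, against 4.02-fold and 3.77-fold in B409.

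**Figure D3:**
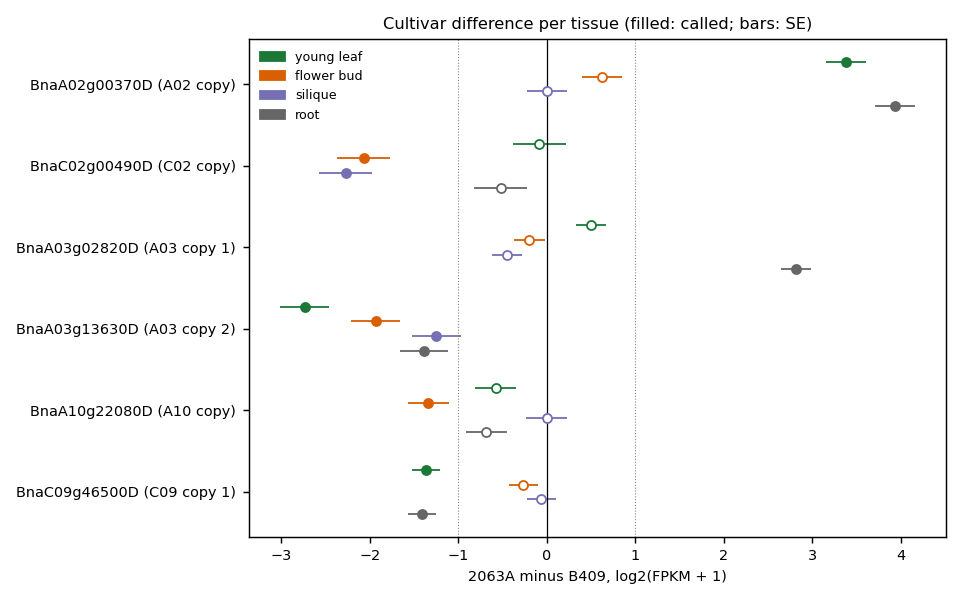
Difference 2063A minus B409 on the log2(FPKM + 1) scale (horizontal axis) for the 6 tested FLC copies, by tissue. Filled points were called, bars are standard errors, and dotted lines mark a difference of 1 on this scale. The A02 copy lies at 3.38 and 3.93 in young leaf and root, and A03 copy 2 lies between -2.74 and -1.25 in all 4 tissues.

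Called copies went in both directions in young leaf and root, and were all lower in 2063A in flower bud and silique. Calls needed a difference of at least 1 in size on the log2(FPKM + 1) scale. They also needed a p below 0.05 after Benjamini-Hochberg adjustment over the 54206 tested genes, which include 6 of the 9 copies. This scale shrinks differences of low copies: the A02 copy in flower bud differed 4.13-fold in mean FPKM, at a difference of 0.62. That fold rests on 32 fragments in 2063A and 4 in B409, and was 2.15 without 2063A flower bud replicate 2. An uncalled copy may thus differ more than 2-fold in FPKM. In root, 2 of the 9 copies were higher (A02 copy, A03 copy 1), where 5.36% of all tested genes were higher, and 2 lower (A03 copy 2, C09 copy 1), with 5.43% of tested genes lower. In young leaf, 1 was higher (A02 copy; 4.33% of tested genes) and 2 lower (A03 copy 2, C09 copy 1; 5% of tested genes). In flower bud, 3 were lower (C02 copy, A03 copy 2, A10 copy; 5.52% of tested genes). There limma called 0 copies higher, against 6.78% of tested genes, and 1 copy was higher at an unadjusted p below 0.05 (A02 copy). In silique, 2 were lower (C02 copy, A03 copy 2, beside 4.72% of tested genes). There limma called 0 higher, against 4.32% of tested genes, with 0 also at an unadjusted p below 0.05. The A02 and A10 copies were listed at 0 in silique of both cultivars, and C09 copy 1 did not exceed 0.0897 FPKM. These copies could therefore not be called there. With a pseudocount of 0.1, flower bud had 5 called copies, adding the A02 copy as higher and C09 copy 1 as lower. With this pseudocount, 10.3% of tested genes were higher there and 6.6% lower. Averaged over the tissues, the A02 copy was higher (1.98, SE 0.11, limma adjusted p = 4.9e-08; 3.79% of tested genes). The C02 copy (-1.24, SE 0.15, limma adjusted p = 3.4e-05) and A03 copy 2 (-1.83, SE 0.14, limma adjusted p = 6.0e-07) were lower, as were 3.72% of tested genes.

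The cultivar difference depended on tissue for 4 of the 6 tested copies by limma's moderated F over 3 interaction contrasts, as it did for 20.9% of all tested genes. These were the A02 copy (adjusted p = 6.0e-06), A03 copy 1 (6.75e-06), C09 copy 1 (0.0013) and the C02 copy (0.0047). Their largest differences were in root for the A02 copy, A03 copy 1 and C09 copy 1 (for the last, -1.41 against -1.37 in young leaf) and in silique for the C02 copy. With a pseudocount of 0.1, C09 copy 1 no longer passed (limma adjusted p = 0.077). A03 copy 2 (limma adjusted p = 0.0505) and the A10 copy (0.060) just missed the threshold, and other settings moved them across it. With quantile normalization both passed, at a limma adjusted p of 0.022 for A03 copy 2 and 0.037 for the A10 copy. The A10 copy also passed with a pseudocount of 0.1 (limma adjusted p = 0.029) and with equal totals (0.043). With single libraries left out, A03 copy 2 passed without B409 young leaf replicate 2 (limma adjusted p = 0.0042) and without 2063A root replicate 2 (0.037). The A10 copy passed without any of the 4 young leaf libraries, at a limma adjusted p of 0.036 and 0.038 without 2063A replicates 1 and 2, and 0.011 and 0.0094 without B409 replicates 1 and 2.

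Between tissues, the called FLC copies were higher in the seedling tissues, young leaf and root, and lower in flower bud and silique. Each tissue was set against the mean of the other 3, over both cultivars. These means join the cultivars, although their difference depended on tissue for the A02 copy, the C02 copy, A03 copy 1 and C09 copy 1. Young leaf was higher for A03 copy 1 (3.998, SE 0.10, limma adjusted p = 2.1e-11), the A10 copy (2.20, SE 0.13, limma adjusted p = 3.2e-08), the C02 copy (1.20, SE 0.17, limma adjusted p = 4.8e-05) and C09 copy 1 (1.12, SE 0.09, limma adjusted p = 5.1e-07). These are 4 of the 9 copies, beside 9.71% of tested genes. With a pseudocount of 0.1, and also with quantile normalization, all 6 tested copies were higher in young leaf, adding the A02 copy (1.56 and 1.13) and A03 copy 2 (1.33 and 1.09). Lower in young leaf were 0 copies by limma (0 also at an unadjusted p below 0.05), beside 20.5% of tested genes. After quantile normalization the shares of tested genes in young leaf were 13.4% higher and 10.8% lower. With the pseudocount of 0.1 they were 13.6% higher and 40.5% lower. The median change in young leaf was 1.16 over the 6 tested copies and -0.51 over all tested genes (-0.20 after quantile normalization). The 4 young leaf libraries of A03 copy 1 (35.2 to 55.1) lay above all 12 others (0.195 to 11.4), whereas those of the other 3 copies overlapped with them.

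Root was higher for 3 of the 9 copies, where 18.7% of tested genes were higher: the C02 copy (1.37, SE 0.17, limma adjusted p = 1.5e-05), the A10 copy (1.27, SE 0.13, limma adjusted p = 3.2e-06) and the A02 copy (1.18, SE 0.13, limma adjusted p = 4.4e-06). In root 0 copies were lower by limma (1 at an unadjusted p below 0.05, A03 copy 1 at -0.34), beside 14.9% of tested genes. For the A02 copy this mean covers 2063A, with 14.1 and 14.4, and B409, at 0. Silique was lower for 3 copies, where 5.61% of tested genes were lower: the A10 copy (-2.62, SE 0.13, limma adjusted p = 1.0e-08), the C02 copy (-1.66, SE 0.17, limma adjusted p = 5.8e-06) and the A02 copy (-1.44, SE 0.13, limma adjusted p = 1.6e-06). In silique the C02 copy had 3.31 and 4.84 FPKM in B409, against 0 and 0.0763 in 2063A. The A02 copy was at or near 0 in every tissue of B409, so its silique call rested on 2063A. Higher in silique were 0 copies by limma (0 also at an unadjusted p below 0.05), beside 9.34% of tested genes. The A10 copy was listed at 0 in all 4 silique libraries and had 0.455 to 18.5 FPKM in the other 12; the zeros allow up to 0.496, above the lowest of these. In flower bud 0 copies were higher by limma (0 also at an unadjusted p below 0.05), beside 14.1% of tested genes. Flower bud was lower for A03 copy 1 (-2.66, SE 0.10, limma adjusted p = 6.2e-10), where 9.28% of tested genes were lower, and its 4 libraries (0.195 to 0.529) lay below all 12 others (0.708 to 55.1). The bud libraries held 3 to 6 fragments of this copy, and root of B409, the lowest of the others, held 8 and 7. After quantile normalization flower bud was lower for 3 copies, adding the C02 copy (-1.13) and the A10 copy (-1.08), beside 11.5% of tested genes. The C02 copy also passed without replicate 1 of either cultivar's flower bud (-1.06 without that of 2063A, -1.10 without that of B409). A03 copy 1 in silique lay just short of the size threshold of 1 (-0.998, SE 0.10, limma adjusted p = 4.2e-06) and was not called. Its difference passed 1 in size with any of 8 single libraries left out, at up to -1.12.

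**Figure D4:**
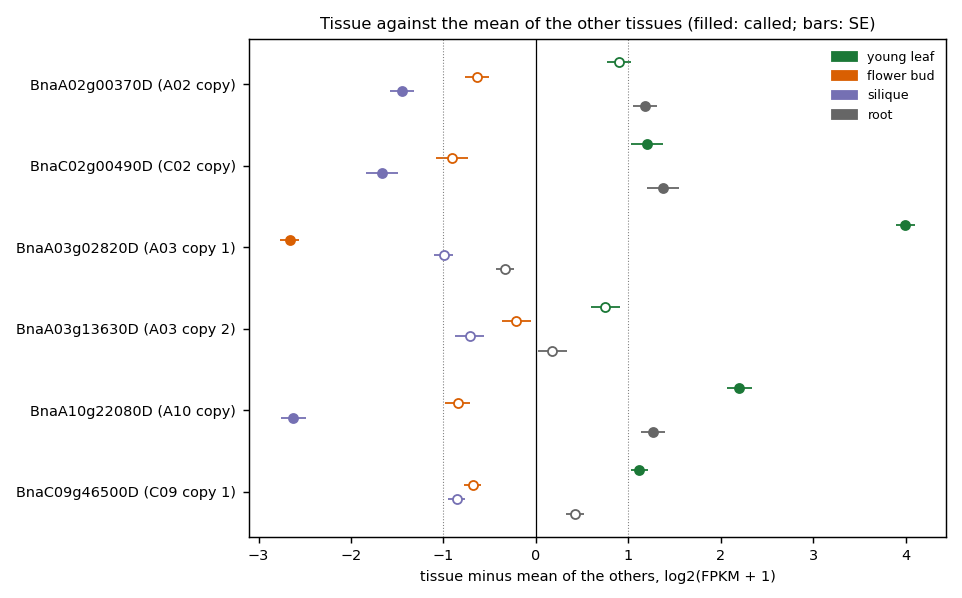
Difference of each tissue from the mean of the other 3 on the log2(FPKM + 1) scale (horizontal axis) for the 6 tested FLC copies, over both cultivars. Filled points were called, bars are standard errors, and dotted lines mark a difference of 1 on this scale. Young leaf points lie right of 0 for all 6 copies (0.75 to 3.998), and silique points lie left of it (-2.62 to -0.72).

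Within each copy the 8 groups fell in different orders. For A03 copy 1 no 2 neighbouring groups in the order overlapped: young leaf of 2063A, young leaf of B409, root of 2063A, silique of B409, silique of 2063A, root of B409, flower bud of B409 and flower bud of 2063A. The end of this order is uncertain. It rests on 8 and 7 fragments in root of B409, 6 and 3 in flower bud of B409, and 6 and 4 in flower bud of 2063A. For the C02 copy the 6 highest groups overlapped with their neighbours in the order (12.3 FPKM in root of B409 down to 4.07 in silique of B409), and only bud and silique of 2063A stood apart below them. For the A10 copy, young leaf of B409, young leaf of 2063A and root of B409 overlapped, and the rest stepped down without overlap to silique. For A03 copy 2 the 4 groups of B409 came first, with root and flower bud overlapping (2.97 each). For C09 copy 1, young leaf and root of B409 came first, then young leaf of 2063A (0.777 ± 0.0881, SD, n = 2).

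Genes with nearby identifiers gave the local context of each copy. The 10 listed genes on each side were taken whatever their values, 163 genes in all, of which 95 were tested. The nearest tested neighbours on either side were not called over the tissues for the A02 copy, the C02 copy, both A03 copies, the A10 copy and C03 copy 2. The largest of their mean differences was -0.65 (BnaA03g13640D). In single tissues, BnaA03g13640D was lower in root of 2063A (-1.38) and BnaA03g13620D higher in its silique (1.25). Over all tested genes, 5.36% were higher and 5.43% lower in root of 2063A, and 4.33% and 5% in young leaf; the counts of neighbours stand beside these shares. Fitted to young leaf alone, the called neighbours of all copies there numbered 7 in place of 20. Around the A02 copy, 4 of 16 tested neighbours were higher in 2063A in root and 1 was lower. Around the C02 copy the median difference over 13 tested neighbours in silique was -0.09, where the copy itself was at -2.27.

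Around A03 copy 1, 6 of 16 tested neighbours were higher in root of 2063A and 1 lower, with a median of 0.32. Its nearest tested neighbours on either side, BnaA03g02800D and BnaA03g02830D, were at 0.09 and -0.19 in root and were not called. BnaA03g02890D, 7 genes on, had 12.6 FPKM in root of 2063A and 0.210 in root of B409. Around the A10 copy, 5 of 13 tested neighbours were higher in root of 2063A, and 4 were higher and 1 lower in young leaf, with medians of 0.69 and 0.73, while the copy itself was at -0.68 and -0.57. Around C09 copy 1, 3 of 4 tested neighbours were lower in 2063A in root and 3 in young leaf, with medians of -1.50 and -1.78, and the copy itself was at -1.41 and -1.37. BnaC09g46430D, 7 genes before it, had 0.466 FPKM in root of 2063A and 10.2 in root of B409. Next to C03 copy 1, BnaC03g04180D was higher in 2063A in all 4 tissues (1.29 to 1.98), and BnaC03g04190D, the next after it, was lower in all 4 (-2.94 to -1.85). The part of these stretches in the differences of the copies was not tested.

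**Figure D5:**
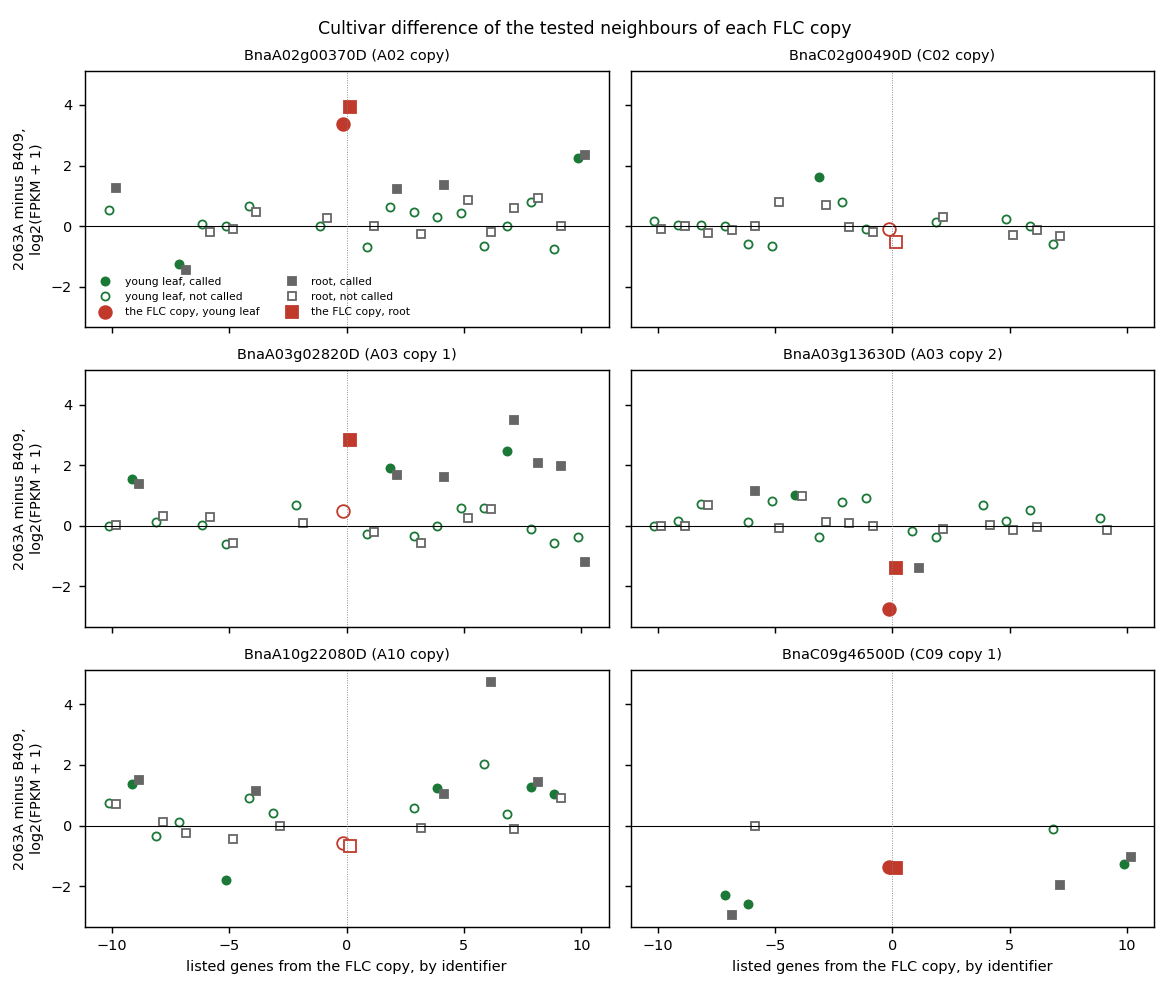
Difference 2063A minus B409 on the log2(FPKM + 1) scale (vertical axis) of each tested FLC copy (red) and of the tested genes up to 10 places before and after it by identifier, in young leaf (circles) and root (squares); filled marks were called. The neighbours of C09 copy 1 lie at or below 0 like the copy, and those of the A10 copy lie mostly above it (medians 0.73 in young leaf and 0.69 in root).

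For each tested copy the genes with the most similar profile were found by Pearson's r over the 16 libraries on the log2(FPKM + 1) scale, among 54205 other genes. These values describe likeness over libraries that share tissues and cultivars. For A03 copy 1 the leading genes were BnaA02g00410D (r = 0.974) and BnaA02g00420D (r = 0.960), which lie 4 and 5 genes after the A02 copy by identifier. BnaA02g00410D had 5.59 FPKM in young leaf and 1.72 in root of 2063A, against 4.02 and 0.0635 in B409. For the A02 copy it was BnaC03g26520D (r = 0.984), with 1.53 FPKM in young leaf and 1.43 in root of 2063A, and listed at 0 in all 8 libraries of B409. For A03 copy 2 it was BnaC03g37960D (r = 0.927), with 0.0469 to 0.444 FPKM over the groups of 2063A and 3.34 to 12.7 over those of B409. The leading genes for the others were BnaC01g03860D for the A10 copy (r = 0.949), BnaA02g34690D for C09 copy 1 (r = 0.957) and BnaA01g13540D for the C02 copy (r = 0.932). No FLC copy was among the 3 genes most like another. After quantile normalization, only 1 of the 3 genes most like the C02 copy was kept.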

How the data were processed

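Each of the 16 libraries has 1 deposited file with an FPKM value per gene, made by the authors. Trimmomatic, TopHat2 and Cufflinks 2.1.1 were used, per the submitters' processing notes; the genome build, annotation, settings and strand are not stated in the sources used here. FPKM is not a count, so no count model was used. Groups and replicate numbers come from the labels. The copies, lists and tests were chosen with earlier results of these data known.

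Values were transformed to log2(FPKM + 1), a pseudocount of 1, which understates changes of low genes. The 54206 genes that reached an FPKM of 1 in 2 or more libraries were fitted with limma 3.58.1 in R 4.3.3, with 1 mean per group, empirical Bayes moderation with a trend (8 residual and 3.35 prior degrees of freedom), and 1 spread per gene over all libraries. Tests are two-sided and Benjamini-Hochberg adjusted over all tested genes; the script was tested on simulated data. A call needed an adjusted p below 0.05 and a log2 change of 1 or more in size.

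Relative depth was the most frequent ratio of low FPKM values between a library and 2063A root replicate 1. A value was taken as whole within 0.05 of a fragment. Of 42831 genes with low, narrow values, 47.9% came out whole in all libraries with multipliers up to 12. If the smallest step of a copy holds more than 1 fragment, its fragments are undercounted. Counting intervals were exact (scipy 1.17.1), at 95%. Named genes were all 9 copies, the 3 tested genes most like each tested copy, of which the leading ones are printed, and the nearest tested neighbours; other neighbours were named after their values were seen. Alternatives were a pseudocount of 0.1, no filter, equal totals, quantile normalization, a replicate block, each library left out, fits to 1 tissue and a fit without young leaf.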

Additional observations from a re-analysis of the deposited data

Results flagged for a closer look

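For 4 copies the cultivar difference itself differed between tissues (limma moderated F, adjusted over all tested genes). These were BnaA02g00370D (adjusted p = 5.99e-06), with 3.93 in root and 0 in silique, BnaA03g02820D (adjusted p = 6.75e-06), with 2.82 in root and -0.45 in silique, BnaC09g46500D (adjusted p = 0.00132), with -1.41 in root and -0.06 in silique, and BnaC02g00490D (adjusted p = 0.00472), with -2.27 in silique and -0.09 in young leaf. The differences are 2063A minus B409 on the log2(FPKM + 1) scale, which brings a difference close to 0 where both cultivars are near 0. With a pseudocount of 0.1 the value for BnaC09g46500D was 0.077. Groups of 2 libraries were too small to look for single outlying libraries.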

How the results depend on the processing

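Taken singly, all 26 calls of single copies in cultivar and tissue comparisons kept their direction and side of the threshold under every alternative run for them; of the 4 calls of tissue dependence, that of C09 copy 1 was lost with a pseudocount of 0.1 (limma adjusted p = 0.077). A pseudocount of 0.1 gave 4 copies over tissues (main 3, C09 copy 1 added at -1.70). Between the cultivars in flower bud it gave 5 (main 3). Against the other tissues it gave 6 in young leaf (main 4), 2 in flower bud (main 1) and 5 in silique (main 3). Root had 4 (main 3, C09 copy 1 added at 1.32). Shares of tested genes called rose too. Between the cultivars they were 8.07% higher and 7.31% lower over tissues (main 3.79% and 3.72%). In flower bud they were 10.3% and 6.6% (main 6.78% and 5.52%). Against the other tissues, 13.6% were higher in young leaf (main 9.71%) and 24.7% in root (main 18.7%). Lower were 18.2% in flower bud (main 9.28%) and 13.9% in silique (main 5.61%). Quantile normalization gave 6 in young leaf (13.4% of tested genes higher), 3 in flower bud (11.5% lower) and 4 in silique (6.47% lower). Tissue dependence was called for 5 copies with equal totals and 6 with quantile normalization (main 4). With each library left out, flower bud against the other tissues had 1 to 2, silique against the other tissues 3 to 4, young leaf 4 to 5, the tissue dependence 4 to 6, and the other counts did not change. A03 copy 1 in silique was called (at up to -1.12) without 2063A young leaf replicate 1, flower bud replicate 2, silique replicate 2 or root replicate 1, or B409 young leaf replicate 1, flower bud replicate 2, silique replicate 2 or root replicate 2, and the A02 copy in young leaf (1.06, against 0.90 with all) without 2063A young leaf replicate 1. Of the 95 tested neighbours, 31 were called over tissues (main 14) and 18 in silique (main 11) with a pseudocount of 0.1. Over all tested genes, silique then had 5.49% higher and 6.42% lower (main 4.32% and 4.72%). Over tissues those shares are the 8.07% and 7.31% given above. Fitted to young leaf alone, the called neighbours there numbered 7 (main 20). The share of A03 copy 1 in young leaf was 59.9% in 2063A and 46.9% in B409 after quantile normalization (63.7% and 49.8% as means of replicates). The causes were not tested. Outside young leaf the replicate numbers did not pair the samples: deviations correlated from -0.175 to 0.335 over 28 pairs of groups. The 1 pair above 0.1 was young leaf of 2063A with young leaf of B409, so replicate numbers may pair the cultivars there. The replicate block fits 1 shift shared by all groups, so it cannot take up a shift of young leaf alone. With a replicate block the counts of called copies were 4 in root, 2 in silique, 3 in each of the other tissues and 3 over tissues between the cultivars, as without the block, and the A10 copy in young leaf had a limma adjusted p of 0.11 (0.12 without). Young leaf replicates varied most (median residual SD 0.244, against 0.114 to 0.133 elsewhere), while the fit shares 1 spread per gene over all groups. Over the alternatives, the limma adjusted p of the cultivar calls in young leaf reached 0.038 for C09 copy 1. It reached 0.011 for A03 copy 2 and 0.0050 for the A02 copy.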
